A study of Mus musculus with 18 samples.

Results

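The genes described here encode the machinery that places, reads and uses methylation of histone H3 at lysine 9 (H3K9), the mark of silent chromatin. They were chosen by name, and all 10 symbols (Trim28, Setdb1, Atf7ip, Morc2a, Mphosph8, Ehmt1, Ehmt2, Suv39h1, Suv39h2 and Cbx5) were found among the 21859 genes of the deposited gene table, together with the promoter upstream transcripts (PROMPTs, short unstable RNAs transcribed away from a gene's start) that carry the same symbols. Nascent RNA was measured by TT-seq, in which newly made RNA is labelled with 4-thiouridine (4sU) for 5 min, biotinylated, captured and sequenced. The 18 libraries came from male murine E14 embryonic stem (ES) cells grown without feeders in serum with LIF and 2 kinase inhibitors, and fell into 6 groups of 3. All groups carried osTIR1, the plant receptor that directs an AID-tagged protein to the proteasome when auxin is present. Untagged cells carried only osTIR1, and in SPT16_AID_V5_Clone1 and SPT16_AID_V5_Clone2 the FACT subunit SPT16 also carried an auxin-inducible degron and a V5 tag, each clone being a single line. Each of these lines was treated for 24 h either with 0.1% ethanol (EtOH) or with the auxin 3-IAA. The labels give the doses as 500 nM 3-IAA and 500 mM 4sU, whereas the methods give both in micromolar units.

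The study set depletion of SPT16 against control cells, to ask what FACT does for transcription in ES cells. For each feature the values used here are a single mean over libraries, made by the authors, with no error, no n and no split by group. The difference between depleted and control cells was therefore not analysed here. What follows is the level of each gene and PROMPT across the pooled libraries. Which of the 18 libraries were pooled is not given, and treated and untreated cells are taken to be mixed. No order between levels can be read against the error between replicates.

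H3K9 methylation is written by several enzymes with different territories. TRIM28 (KAP1) is brought to retroviral elements and imprinted regions by KRAB zinc finger proteins and recruits SETDB1, which trimethylates H3K9 and is held in the nucleus and stabilised by its partner ATF7IP. The HUSH complex, of which MPHOSPH8 (MPP8) is the chromodomain subunit, reads the mark and acts with SETDB1 and with MORC2, an ATPase that compacts chromatin. EHMT1 (GLP) and EHMT2 (G9a) form a heterodimer that makes most mono- and dimethylated H3K9 in euchromatin, SUV39H1 and SUV39H2 trimethylate H3K9 at pericentromeric repeats, and CBX5 (HP1α) binds the methylated tail and helps to pack heterochromatin.

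The promoters of these genes shared a short sequence that the choice of genes did not use, and that is common in promoters of highly transcribed genes. RefSeq (GRCm38.p6) gives 14 windows for the 10 genes, each running from 250 bases before to 50 bases after an annotated start. The GC box bound by SP and KLF factors (GGGCGG, either strand) stood in 13 of the 14 windows and in at least 1 window of each of the 10 genes. It stood in 35.7% of all 32851 mouse windows of that length. Among genes in the upper quartile of level per kb of gene span, where all 10 genes also lie, it stood in 68.0% of 5059 windows. Both shares are per window, whereas the 10 genes had 14 windows, and no share per gene was computed. The 4 windows below are shown because they belong to the gene with the highest level (Trim28), to the genes with the largest and smallest PROMPT relative to their own level (Suv39h2 and Ehmt1), and to the gene with a pair of facing ETS matches (Setdb1). They are written 5′ to 3′ on the gene's strand with motif matches in capitals. These matches are the GC box GGGCGG, or CCGCCC where reversed, AAGATGGC (the YY1 motif) in Suv39h2, and, in Setdb1, CCGGAAG for the ETS motif with CTTCCGG as its reverse complement, and ATTGG for a reversed CCAAT box.
Trim28, chr7:13023902-13024201, plus strand: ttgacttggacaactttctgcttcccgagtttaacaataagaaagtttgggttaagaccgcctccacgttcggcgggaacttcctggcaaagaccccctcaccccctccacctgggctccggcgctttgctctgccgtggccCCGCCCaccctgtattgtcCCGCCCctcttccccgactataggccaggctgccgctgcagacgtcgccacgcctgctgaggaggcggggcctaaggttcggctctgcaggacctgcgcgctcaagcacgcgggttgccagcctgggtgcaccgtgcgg
Suv39h2, chr2:3474937-3475236, minus strand: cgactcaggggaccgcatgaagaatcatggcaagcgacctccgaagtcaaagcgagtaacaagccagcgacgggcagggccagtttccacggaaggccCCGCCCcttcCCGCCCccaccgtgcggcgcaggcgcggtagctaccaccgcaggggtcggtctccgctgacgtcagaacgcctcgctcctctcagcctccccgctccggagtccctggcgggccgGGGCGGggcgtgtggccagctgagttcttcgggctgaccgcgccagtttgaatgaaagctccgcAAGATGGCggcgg
Ehmt1, chr2:24919560-24919859, minus strand: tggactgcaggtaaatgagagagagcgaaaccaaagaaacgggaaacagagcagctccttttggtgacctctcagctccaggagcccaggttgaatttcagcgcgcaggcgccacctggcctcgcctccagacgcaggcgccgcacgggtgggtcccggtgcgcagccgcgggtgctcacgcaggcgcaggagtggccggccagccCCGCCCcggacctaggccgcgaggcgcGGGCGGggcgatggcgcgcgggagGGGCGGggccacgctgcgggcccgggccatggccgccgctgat
Setdb1, chr3:95357153-95357452, minus strand: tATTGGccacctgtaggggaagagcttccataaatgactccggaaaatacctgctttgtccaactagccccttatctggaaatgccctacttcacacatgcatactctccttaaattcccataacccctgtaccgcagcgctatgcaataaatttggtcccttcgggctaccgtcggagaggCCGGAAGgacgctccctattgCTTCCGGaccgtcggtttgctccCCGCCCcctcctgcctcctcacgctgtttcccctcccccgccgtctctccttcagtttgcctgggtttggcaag

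The windows were also rich in CpG dinucleotides, with counts of 33 in Suv39h2, 34 in Ehmt1, 23 in Trim28 and 15 in Setdb1, and 13 of the 14 exceeded the median of 7 over all windows. The median over windows of the upper-quartile genes was 23. The exception was the second, internal start of Morc2a, which held no CpG, was the single window without a GC box and was the single one with a TATA box (TATAAA, either strand, 13.6% of all windows and 6.94% of those of upper-quartile genes). The ETS motif (CCGGAAG, either strand) was found in the Setdb1 window alone, against 8.86% of all windows and 22.9% of those of upper-quartile genes. Its 2 matches lie 68 and 47 bases before the start. The YY1 motif (AAGATGGC, either strand) occurred in 1 window of Suv39h2 and 1 of Suv39h1, against 2.75% of all windows and 6.29% of those of upper-quartile genes, and in Suv39h2 it begins 37 bases after the start. The E-box CACGTG occurred in 1 window of Cbx5 and in both windows of Ehmt2, against 7.15% of all windows and 11.7% of those of upper-quartile genes. CCAAT on either strand occurred in 6 windows of 6 genes, against 37.4% and 39.8%, and the NRF1 motif CGCATGCG in none, against 1.87% and 4.82%. These are matches of letters in windows of 300 bases and not measured binding sites.

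All 10 genes were transcribed above the level of the median gene. Levels of different genes are compared only after division by length, and 2 lengths were used because the sources used here do not say whether intronic reads were counted. Per kb of gene span (first to last annotated base), the median gene with reads had a mean normalised count of 21.7 and the 90th percentile was 239.2, over 20140 genes. The 10 genes ran from 123.5 to 450.5 per kb of span with a median of 201.0, and 5 of them lay above the 90th percentile. Per kb of merged exons the median gene stood at 120.5 and the 90th percentile at 1512. The 10 genes ran from 343.7 to 3459 with a median of 1507, and 5 lay above the 90th percentile. These were not the same 5, with Ehmt1 (2261) in place of Setdb1 (1312). With backgrounds of at least 1 and at least 10 normalised counts, the number was 4 and 2 by span, and 5 and 4 by merged exons. With exons of the basic transcript set and all genes with reads it was 3. Across 15428 genes with a mean of at least 10, the log2 mean rose by 0.994 per log2 unit of exon length. It rose by 0.094 per log2 unit of span, when both entered together. Counts thus scaled with exon length and little with span. This is a description across genes that are not independent, and whether intronic reads were counted was not tested. Together the 10 genes, out of 20157 genes with reads, held 0.180% of the normalised counts of the table. This share is of counts not divided by length.

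**Figure D1:**
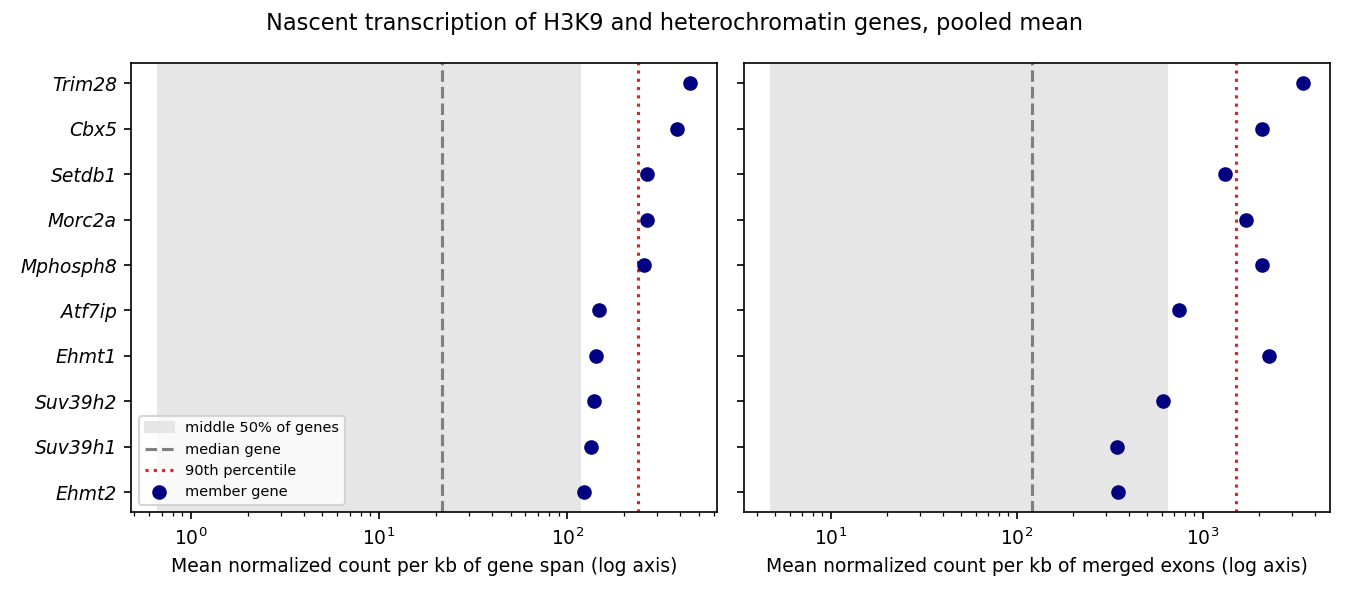
Pooled mean normalised count of each gene per kb of gene span (left) and per kb of merged exons (right), on log axes; each point is 1 gene with no error, the grey band is the middle 50% of all genes with reads, the dashed line the median gene and the dotted line the 90th percentile. All 10 genes sit to the right of the median gene on both scales, and Ehmt1 moves from 141.5 per kb of span to 2261 per kb of exons, above the dotted line.

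Trim28, the corepressor, was the most highly transcribed of the 10. Its pooled mean of 14382 normalised counts came to 450.5 per kb of span and 3459 per kb of exons, the 96.6th and 97.7th percentiles of all genes. The gene lies at chr7:12999114-13031035 (GRCm38, plus strand) in Gencode, a span of 31.9 kb, but the RefSeq start lies 25.04 kb inside that span. With the RefSeq span of 6.88 kb its level was 2090 per kb, the 99.6th percentile.

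Setdb1, the H3K9 methyltransferase that TRIM28 recruits, and Atf7ip, its partner, stood lower. Setdb1 (chr3:95323525-95357202, minus strand) had a pooled mean of 8992, which is 267.0 per kb of span and 1312 per kb of exons, the 91.8th and 87.9th percentiles. Atf7ip (chr6:136506167-136610862, plus strand) had a higher pooled mean, 15396, but its 104.7 kb span and 20.7 kb of merged exons brought it to 147.1 and 742.8 per kb, the 80.1st and 77.9th percentiles. Setdb1 thus stood above Atf7ip by 1.82 times per kb of span and 1.77 times per kb of merged exons, but the ratio was 1.01 with exons of the basic transcript set, and without a length Setdb1 was the lower.

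The HUSH subunit Mphosph8 and the compacting ATPase Morc2a lay close to Setdb1 per kb of span. Mphosph8 (chr14:56668248-56697430, plus strand) had a pooled mean of 7437, or 254.9 per kb of span and 2074 per kb of exons, the 91.1st and 93.8th percentiles. Morc2a (chr11:3649191-3690477, plus strand) had a pooled mean of 10934, or 264.8 and 1703 per kb, the 91.7th and 91.6th percentiles. From Mphosph8 to Setdb1 the span densities of these 3 genes differed by 1.05 times in all. Morc2b, the paralogue of Morc2a, was near silent at 1.10 per kb of span, so that Morc2a exceeded it by 240 times by span, 276 times by exons and 136 times by RefSeq span.

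Ehmt1 and Ehmt2, whose products work as a heterodimer, were level per kb of span and far apart per kb of exons. Ehmt1 (chr2:24789928-24919614, minus strand, span 129.7 kb) had a pooled mean of 18353 and Ehmt2 (chr17:34898469-34914052, plus strand, span 15.6 kb) one of 1925. Per kb of span these came to 141.5 and 123.5, a ratio of 1.15, and per kb of exons to 2261 and 350.6, a ratio of 6.45. Ehmt1 was at the 79.2nd percentile by span and the 94.7th by exons, Ehmt2 at the 76.2nd and 64.2nd. How far apart the pair stood thus depends on the length used, while their order did not.

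Suv39h1 and Suv39h2, the methyltransferases of pericentromeric chromatin, were among the lower members. Suv39h1 (chrX:8061171-8074760, minus strand) had a pooled mean of 1811, or 133.3 per kb of span and 343.7 per kb of exons, the 77.8th and 63.9th percentiles. Suv39h2 (chr2:3455815-3475031, minus strand) had a pooled mean of 2680, or 139.5 and 607.8 per kb, the 78.8th and 74.0th percentiles. Suv39h2 exceeded its paralogue by 1.05 times by span and 1.77 times by exons.

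Cbx5, the HP1α gene, was second to Trim28 per kb of span. Its pooled mean of 18613 was the highest of the 10, and over chr15:103191544-103239816 (minus strand) it came to 385.6 per kb of span and 2067 per kb of exons, the 95.6th and 93.8th percentiles. Cbx1 (HP1β) was higher than Cbx5 on both scales, with Cbx5 at 0.794 of it by span, 0.931 by merged exons and 0.531 by exons of the basic transcript set. Cbx3 (HP1γ) was level with Cbx5 by span, at a ratio of 0.995, and Cbx5 stood at 2.40 times Cbx3 by merged exons, but at 0.785 of it when only exons of the basic transcript set were counted.

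In order of level per kb of Gencode span the genes can be set in 3 runs. The lowest held Ehmt2, Suv39h1, Suv39h2, Ehmt1 and Atf7ip within 1.19 times of each other. Then came Mphosph8, Morc2a and Setdb1, and then Cbx5 and Trim28 within 1.17 times. The largest step between neighbours was the 1.73 times from Atf7ip to Mphosph8. That from Setdb1 to Cbx5 was 1.44 times, and the whole range was 3.65 times. With RefSeq spans the order stayed the same, but Trim28 stood 5.43 times above Cbx5, the step from Atf7ip to Mphosph8 was 1.52 times and the whole range was 17.0 times. By merged exons the range was 10.1 times, the order changed and Suv39h1 came lowest. With exons of the basic transcript set Atf7ip (1910 per kb) stood beside Setdb1 (1930) and Morc2a (1933), so the division after Atf7ip was lost.

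**Figure D2:**
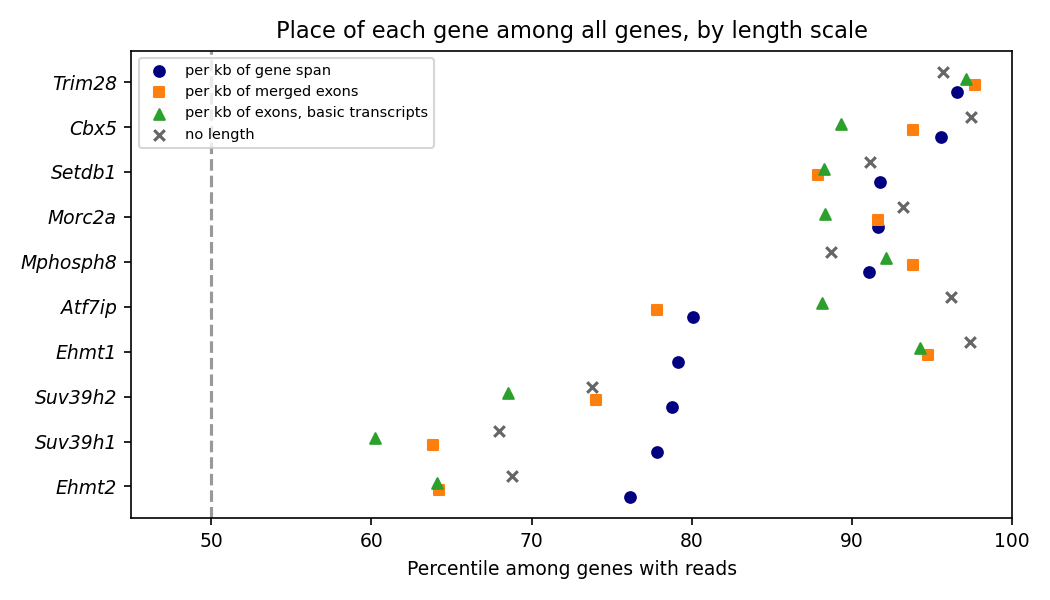
Percentile of each of the 10 genes among all genes with reads (horizontal axis, from 45 to 100), with the count divided by gene span, by merged exons, by exons of the basic transcript set, or by no length; the dashed line is the 50th percentile. Trim28 and Setdb1 move little between scales, Ehmt1 spreads from 79.2 by span to 97.4 with no length, and every point lies to the right of the dashed line.

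The genes that work beside these 10 spanned a wider range. The 44 other genes of the list were all in the table. Of the other methyltransferases and their partners, 7 of 9 were above the median gene by span, from Mecom at 0.926 to Zfp644, a zinc finger partner of the EHMT enzymes, at 172.3 per kb of span. By merged exons 8 of 9 were above the median gene, and the highest was Cdyl2, a chromodomain gene, at 9171 per kb of exons, above all 10 genes described here. Of the other HUSH and MORC genes, 5 of 7 were above the median gene, with Morc3 highest at 409.5 and the HUSH scaffold gene Tasor at 320.3, above Mphosph8 by span and below it by merged exons, where Mphosph8 stood at 1.61 times Tasor. Of the TRIM28 relatives and KRAB zinc finger genes, 6 of 7 were above it, from Trim66 at 3.14 to Zfp57, which guards imprinted regions, at 1220, above Trim28 by Gencode span and below it by merged exons (3053 against 3459 per kb of exons). Of the HP1 and heterochromatin assembly genes, 10 of 11 were above it, with Uhrf1, which couples H3K9 methylation to DNA methylation, highest at 562.2 and Adnp listed at 0. Adnp is a broadly used gene, so a 0 in this table may not be a measured level. Of the H3K9 demethylases, which remove the mark, 9 of 10 were above it, from Kdm4d at 7.92 to Kdm1a at 303.2. The median of the 10 genes, 201.0 per kb of span, lay above the medians of the demethylases (144.5), the other methyltransferases (109.0) and the other HUSH and MORC genes (83.4) and below those of the HP1 group (286.7) and the TRIM28 and KRAB group (320.5). Per kb of merged exons the median of the 10 genes was 1507, above the demethylases (1207), the other methyltransferases (991.0), the other HUSH and MORC genes (1286) and also the HP1 group (1339), and below the TRIM28 and KRAB group (1910). Both medians of the HP1 group count Adnp as 0. The lists were not tested against each other.

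**Figure D3:**
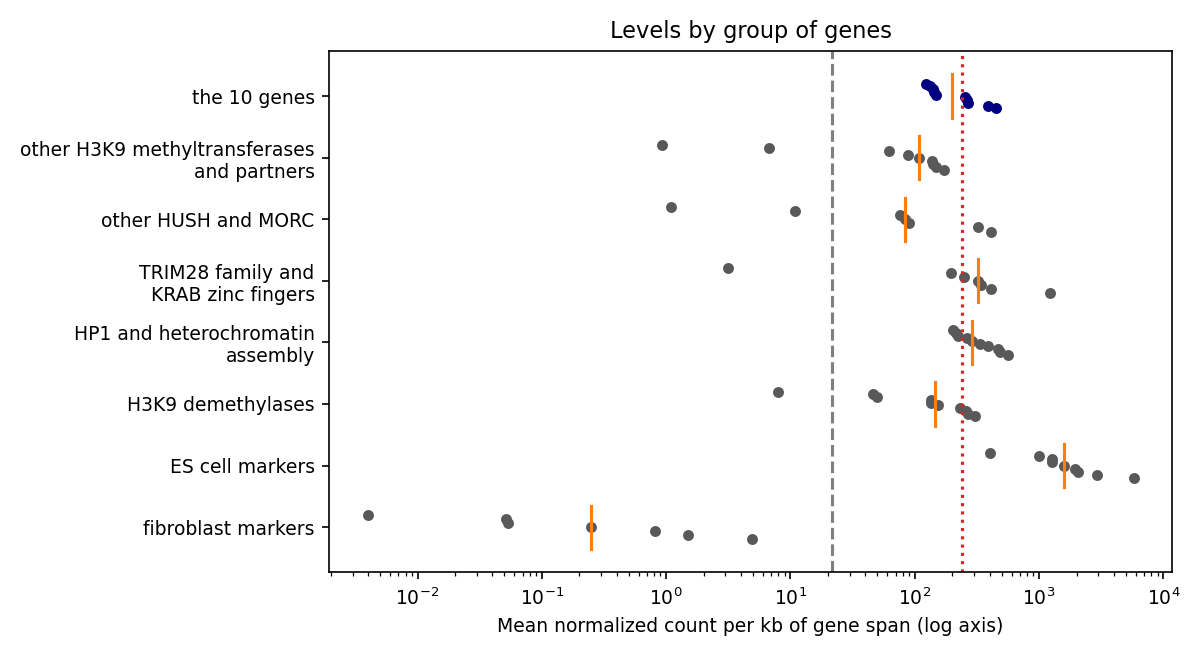
Pooled mean normalised count per kb of gene span (log axis) for the 10 genes (blue) and for related gene groups and cell type markers (grey); each point is 1 gene, orange bars are group medians, the dashed line is the median of all genes and the dotted line the 90th percentile. Adnp, listed at 0, has no place on the log axis but is counted in the median of its group. The 10 genes lie between 123.5 and 450.5, above all fibroblast markers. On this scale Trim28 lies above 1 of the 9 ES cell markers, Esrrb (401.4).

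The labelled cell type was checked against markers on the same scale. All 9 ES cell markers were above the 90th percentile by span, from Esrrb at 401.4 to Dppa5a at 5779. Trim28 lay above 1 of these 9 markers by Gencode span, 4 by merged exons and 7 by RefSeq span. All 7 fibroblast markers were below the median gene, at 0.00396 to 4.94, and 1 of 8 markers of differentiated lineages (T, 25.7) was above it by span. Tubb3 and Neurod1 are listed at 0, which, as for Adnp, may not be a measured level. A mean pooled over libraries does not show how these markers differed between groups.

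PROMPTs were listed for 5 of the 10 genes, where 82.5% of all genes with reads had one listed. The 5 were Trim28, Suv39h2, Atf7ip, Cbx5 and Ehmt1, and their pooled means were far below those of their genes. The PROMPT of Trim28 had a mean of 29.6 normalised counts, the 91.8th percentile of 13706 PROMPTs of genes with reads, and that of Suv39h2 one of 15.1, the 84.5th percentile. That of Atf7ip stood at 2.96 and that of Cbx5 at 1.67, the 61.2nd and 52.3rd percentiles, both above the median of 1.42. The PROMPT of Ehmt1 was lowest at 0.348, the 27.1st percentile. If the smallest value in the table stands for 1 read, these means rest on few reads over the pooled libraries for some genes. The limits are at most 1110 reads for Trim28, 565 for Suv39h2, 111 for Atf7ip, 62 for Cbx5 and 13 for Ehmt1. The Ehmt1 value is thus the least certain.

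Relative to its gene, the Suv39h2 PROMPT was the largest, at 0.562% of the gene's mean, above the median of 0.340% over genes with both. Trim28 had 0.206%, Atf7ip 0.0192%, Cbx5 0.00896% and Ehmt1 0.00190%. Genes and PROMPTs were scaled by separate size factors, so these percentages mix 2 scales, and they also fall with the length of the gene. Suv39h2 and Ehmt1 were neighbours in level per kb of span, at 139.5 and 141.5, and their PROMPTs differed by 43.3 times, a pair picked after the values were seen. Per kb of merged exons these 2 genes were not level, at 607.8 for Suv39h2 and 2261 for Ehmt1. Among the 5 genes with a PROMPT listed, PROMPT level did not follow the order of gene level by span or by merged exons.

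**Figure D4:**
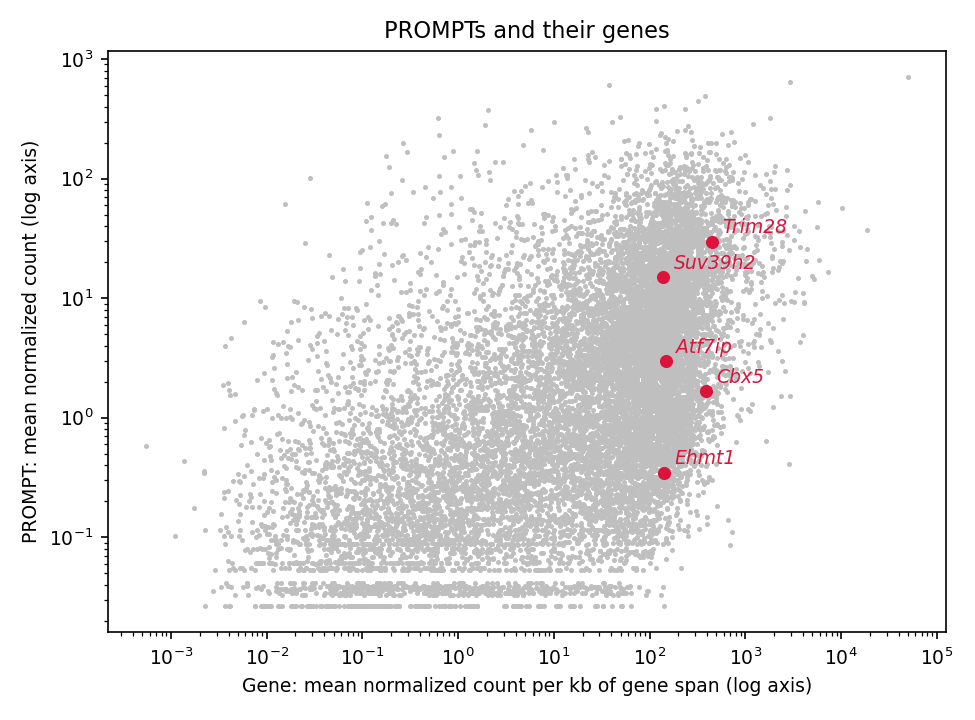
Pooled mean normalised count of the PROMPT against that of its gene per kb of gene span, both on log axes, for all genes with both values (grey) and the 5 genes with a PROMPT listed (red); each point is a single pooled mean with no error. Ehmt1 and Suv39h2 share a position along the horizontal axis and stand at 0.348 and 15.1 on the vertical axis.

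No PROMPT row was listed for Setdb1, Morc2a, Mphosph8, Ehmt2 or Suv39h1. The notes deposited with the tables describe PROMPTs as lying within 1 kb upstream of a start and away from other coding transcripts by the same distance, so the lack of a row does not show a lack of reads. In Gencode vM21, 3 of these 5 genes had another gene's start on the opposite strand within 1 kb upstream of one of their own. Morc2a had Tug1, a long non-coding RNA gene, 86 bp away with a pooled mean of 4423, Ehmt2 had C2, a complement gene, 204 bp away with 151.5, and Mphosph8 had the pseudogene Gm4032 at 124 bp, which has no value here. Of the 5 genes with a PROMPT listed, 2 had such a neighbour too. Cbx5 had Hnrnpa1, a splicing factor gene, 616 bp away with a pooled mean of 14303, and Trim28 had Slc27a5 922 bp upstream of its outermost Gencode start with 49.6. On the downstream side, Atf7ip, which has a PROMPT row, had Gm44140, annotated as a bidirectional promoter long non-coding RNA. Its start lies on the opposite strand, 185 bp from one of the Atf7ip starts. Setdb1, without a PROMPT row, had the opposite-strand start of Gm37500 959 bp downstream. Neither Gm44140 nor Gm37500 has a value here. Tug1 and Gm4032 are annotated as non-coding. The part of these neighbours in which PROMPTs are listed was not tested. Whether their reads entered the PROMPT values of Cbx5, Atf7ip or Trim28 was not tested either. The table does not say at which start a PROMPT was counted.

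Exons of the 10 genes were nearly free of same-strand overlap with other genes, with 21 bp (0.259%) in Ehmt1 and 0 in the others. Overlap with genes of the opposite strand was highest in Suv39h1, at 14.6% of its merged exons, followed by Mphosph8 at 10.7%, Suv39h2 at 9.98%, Morc2a at 7.52% and Setdb1 at 4.73%, with 83 bp in Atf7ip and 0 in Trim28, Ehmt1, Ehmt2 and Cbx5. Reads were counted by strand.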

How the data were processed

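The authors trimmed the reads, aligned unique matches to mm10 with STAR and counted pairs by strand over genes and PROMPTs; the paper's methods name featureCounts and the submitters' processing notes HTSeq. The deposited signal per feature (baseMean) is a normalised count, scaled by the authors with size factors from DESeq2 and averaged across libraries. The further deposited columns hold the authors' own comparison of depleted with control cells (log2 fold change, its standard error, p-value and adjusted p-value) and were not used. There were 0 columns of single libraries in the tables, so depth per library is unknown here, and no comparison, test or interval was computed. Which libraries entered the mean is not given in the sources used here.

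Pooled means were divided by gene span or merged exons from Gencode vM21 (GRCm38, the build of the files), matched by gene ID for 21817 of 21859 genes, and ranked among genes with a mean above 0. Promoter windows came from RefSeq GRCm38.p6, and windows were found for 10 of 10 genes. The slopes script was checked on simulated data. Alternatives were other lengths, backgrounds of at least 1 or 10, and PROMPT limits of at least 1 or 10. Python 3.11.15, numpy 2.4.6 and pandas 2.3.3 were used. The genes and lists were chosen with earlier results of these data known. Named beside the 10 genes were the paralogues of Cbx5 and Morc2a and genes starting within 1 kb of a start of the 10. Listed genes that were highest, lowest or next to one of the 10 in their class were also named. Other paralogues, Setdb2 and Atf7ip2 among them, were not described. Tasor was named after its value was seen, and the Setdb1 to Atf7ip ratio and the Suv39h2 and Ehmt1 PROMPT pair were chosen likewise.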

Additional observations from a re-analysis of the deposited data

How the results depend on the processing

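All 10 genes stayed above the median gene with backgrounds of at least 1 or 10 normalised counts, with merged exons, with no length and, chosen after seeing the data, with exons of the basic transcript set or the RefSeq span, each changed alone. Changed together, basic exons and the background of at least 10 left 9. PROMPTs were listed for 5 genes, for 4 with a mean of at least 1 and for 2 (Trim28 and Suv39h2) with a mean of at least 10. The percentile moved most for Ehmt1 (72.8 to 97.4) and Atf7ip (74.0 to 96.2) and least for Setdb1 (87.9 to 91.8) and Trim28 (95.6 to 99.6, the top with the RefSeq span). The deposited means allow no replicate to be left out. No paired analysis was possible because the values used are single means over libraries and carry no replicate numbers.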
